A study of Mus musculus with 12 samples.

Results

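The 9 genes described here build, cut or regulate liver glycogen, and they were taken by name from the 16346 genes of a liver RNA-seq table. They are the enzymes *Gys2*, *Gbe1* and *Pygl*, the phosphorylase kinase subunits *Phka2*, *Phkb* and *Phkg2*, and the glycogen-targeting phosphatase subunits *Ppp1r3b*, *Ppp1r3c* and *Ppp1r3g*. All 9 were found in the table, and all 9 had a mean normalized count of at least 10 and entered the test, *Ppp1r3g* only through the fasted control mice in which it was high. The table holds 12 libraries, each from the liver of a C57BL6J mouse aged 12 weeks. Control mice were Med13fl/fl, which carry the floxed *Med13* gene without Cre. The others were labelled MED13-LKO, in which an *Alb*-Cre transgene is meant to delete *Med13* in hepatocytes, while other liver cells keep it. Within each genotype, 2 mice were fasted overnight for 16 h, 2 were refed for 4 h with normal chow and 30% sucrose in the drinking water, and 2 were refed in the same way with 30% fructose. The fed mice thus received chow as well as sugar, and no group refed on chow with plain water was analysed here. By the study's methods, fasted mice were killed earlier in the day than fed mice, so feeding and time of day cannot be told apart. MED13 links the kinase module to the Mediator complex, which connects transcription factors to RNA polymerase II. The study asked how sugars and MED13 act on liver glycogen, and the comparisons below ask how the RNA of these genes differed with feeding and genotype.

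Liver stores glucose as glycogen after a meal and releases it in the fasted state. Glycogen synthase, encoded by *Gys2* in liver, lengthens the glucose chains, and the branching enzyme encoded by *Gbe1* adds their branch points. Glycogen phosphorylase, encoded by *Pygl* in liver, removes glucose units from the chain ends. Phosphorylase kinase switches phosphorylase on, with regulatory subunits from *Phka2* and *Phkb* and the catalytic subunit from *Phkg2*. Protein phosphatase 1 reverses this and activates the synthase, and the *Ppp1r3* family brings it to the glycogen particle. Much of this control acts through phosphorylation of the enzymes, which RNA levels do not show.

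Promoter sequence is shown for 3 members with called changes below, taken from the RefSeq table (GRCm38.p6), where 7 of the 9 members had an entry. Bases were numbered backwards from the RefSeq start of the gene, and each was read 5′ to 3′ on the gene's strand. Capitals mark letters that a search of the 250 bases before the start found on either strand. The search used a cAMP response element (TGACGTCA) and its overlapping half-site (TGACG), a forkhead element (TGTTTAC), an E-box (CACGTG), a C/EBP element (TTGCGNAA), a glucocorticoid half-site (AGAACA), the TATA box, taken as TATAAA, and the CCAAT box by its own letters.
Ppp1r3g, chr13:35967865-35967894, plus strand: tTGACGtgctctagtgctaggcgCCAATgg
Ppp1r3c, chr19:36736654-36736854, minus strand: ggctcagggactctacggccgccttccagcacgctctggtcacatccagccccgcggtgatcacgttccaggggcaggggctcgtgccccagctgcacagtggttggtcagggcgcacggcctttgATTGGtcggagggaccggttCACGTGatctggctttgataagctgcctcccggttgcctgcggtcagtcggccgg
Pygl, chr12:70227684-70227933, minus strand: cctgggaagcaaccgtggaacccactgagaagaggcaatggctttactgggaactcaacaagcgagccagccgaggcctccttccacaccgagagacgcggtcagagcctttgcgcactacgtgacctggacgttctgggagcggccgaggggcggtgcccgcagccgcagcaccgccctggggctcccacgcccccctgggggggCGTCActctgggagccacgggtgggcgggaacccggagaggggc
The stretch for *Ppp1r3g* begins 41 bases before the start and holds a half-site of the cAMP response element and a CCAAT box. That for *Ppp1r3c* holds an E-box and, on the other strand, a CCAAT box. That for *Pygl* holds the same half-site on the other strand, 44 bases before the start. Of the 32851 promoters of the table, 17.8% held the half-site, 33.8% a CCAAT box and 6.02% the E-box. The RefSeq starts of *Ppp1r3g*, *Ppp1r3c* and *Pygl* lie inside the spans that GENCODE M21 gives for these genes. The stretch shown for *Ppp1r3c* ends 50 bases before its start, and that for *Ppp1r3g* ends 12 bases before. These matches describe the letters only.

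A few facts of the whole table bear on the values. Normalized counts are the authors' estimated counts divided by their DESeq2 factors, and they are not per length, so levels are compared between libraries and not between genes. Their sums ran from 21062211 to 24152885 in control libraries and from 17309215 to 18738563 in those labelled MED13-LKO. In genes with a single transcript, 87.3% to 99% of low values were whole multiples (within 0.05) of what 1 read is worth, which put 16090000 to 24230000 reads on genes per library. *Med13* RNA was not lower where the label says MED13-LKO. It was 578 to 796 normalized counts in the 6 control libraries and 646 to 1055 in the 6 others, a log2 fold change of 0.22 averaged over diets (adjusted p = 0.201, limma). Values per gene cannot show the loss of an exon, so the genotype is given below as labelled. The study reported MED13 protein to be almost absent from MED13-LKO liver by western blot, in mice not stated to be those sequenced. The summed level of 5 hepatocyte markers was 2145960 to 2804390 in control libraries and 1613230 to 1957120 in those labelled MED13-LKO, without overlap. That sum was mostly *Alb*, with a mean of 1797720 over all libraries, against 107128 for *Apoa1*, the next highest. Taken singly, *Alb* and *Ttr* did not overlap between genotypes, while *Apoa1*, *Cps1* and *Hnf4a* did. By called change, 4 of the 5 markers were lower, against 13.2% of all genes, with a median log2 fold change of -0.44 over the 5. Sinusoidal endothelial markers were higher for 3 of 5 and a Kupffer cell marker (*Cd5l*) for 1 of 5, against 12.1% of all genes. The leukocyte marker *Ptprc*, the 1 of 4 tested, was also higher. Stellate cell markers were lower for 2 of 5, and no cholangiocyte marker (3 tested) or muscle marker (1 tested) was called. Of all genes, 25.3% were called between genotypes. The mean was under 10 for 3 of 4 leukocyte and 2 of 3 muscle markers. With sugar, 2 of 5 hepatocyte markers and 1 of 5 endothelial markers were lower, and of 5 stellate cell markers 1 was higher and 1 lower. Of all genes, 11% were lower and 10.7% higher with sugar. With the libraries rescaled to equal totals, the median log2 fold change of all genes was 0.32 between genotypes and 0.10 with sugar. In bulk liver, fewer cells of a type and less RNA per cell cannot be told apart, and the part of these shifts in the results below was not tested. No source states that equal replicate numbers mark littermates or shared handling, and p-values measure the spread between the 2 mice of a group, taken jointly over the 6 groups.

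Averaged over both genotypes, 5 of the 9 genes changed with sugar feeding in limma with Benjamini-Hochberg adjustment, against 21.8% of all 12366 genes tested. *Ppp1r3b* and *Pygl* rose, while *Ppp1r3g*, *Ppp1r3c* and *Phkg2* fell, and of all genes 10.7% rose and 11% fell. *Gys2*, *Gbe1*, *Phka2* and *Phkb* were not called. Without *Ppp1r3g*, which had to differ to pass the filter, 4 of 8 were called. The median log2 fold change was -0.07 over these 8 genes and -0.01 over all genes tested. Between genotypes, averaged over diets, 2 of the 9 genes were called, against 25.3% of all genes: *Pygl* was lower and *Ppp1r3c* higher where the label was MED13-LKO, and of all genes 13.2% were lower and 12.1% higher. The median over the 8 genes without *Ppp1r3g* was -0.08, and over all genes it was 0.01. The plot of normalized counts by library shows each value, and the plot of log2 fold changes shows both comparisons with their intervals.

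**Figure D1:**
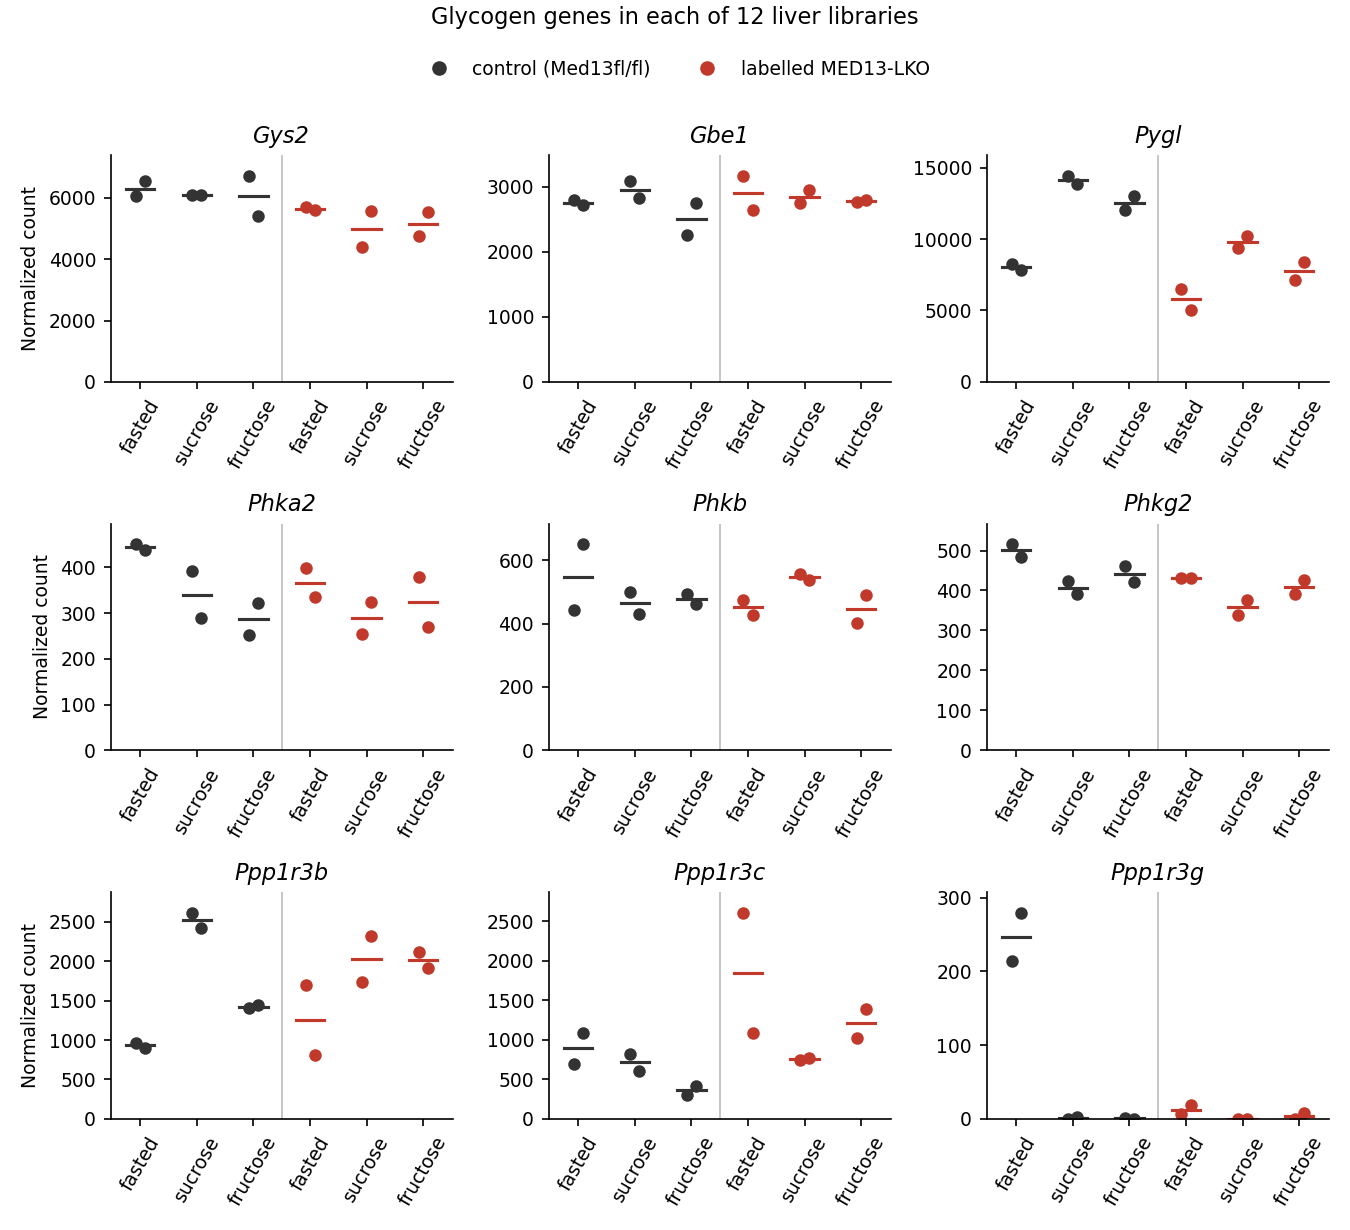
Normalized counts (vertical axes, each from 0) of the 9 glycogen genes in the 12 liver libraries, by diet, with control (Med13fl/fl) mice left of the grey line and mice labelled MED13-LKO right of it; points are mice and bars are means of 2. *Ppp1r3g* lies at 213.8 and 279.9 in fasted control mice and at 18.5 or less in the other 10 libraries, and *Pygl* is lowest in fasted mice of each genotype.

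**Figure D2:**
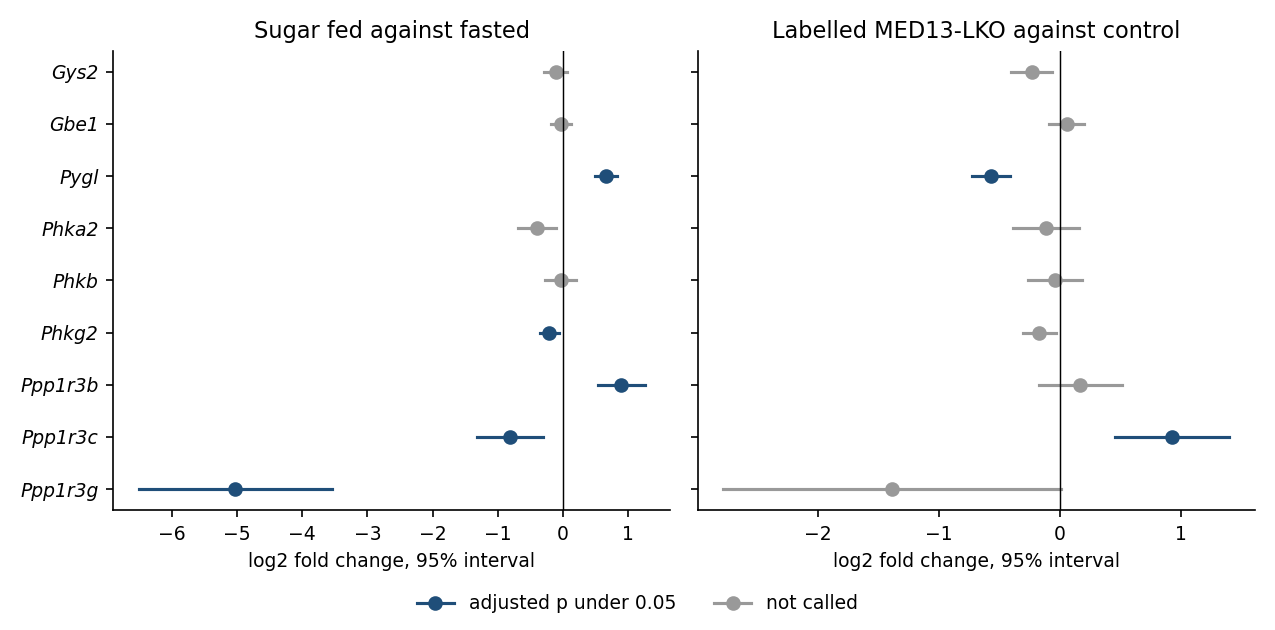
Log2 fold changes on the log2(normalized count + 1) scale (horizontal axes) of the 9 genes for sugar fed against fasted mice, averaged over genotypes (left), and for mice labelled MED13-LKO against control, averaged over diets (right), from limma; lines are 95% intervals and blue points have an adjusted p under 0.05. The 2 panels have different horizontal scales, and 5 genes are called on the left and 2 on the right.

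*Ppp1r3g* (chromosome 13, 35958839 to 35970388, plus strand, GRCm38) encodes a phosphatase targeting subunit, and its RNA was high in fasted control livers and near 0 in fed ones. Normalized counts in control livers were 213.8 and 279.9 for fasted mice, 0 and 2.1 for sucrose-fed mice and 1.1 and 0 for fructose-fed mice. With the label MED13-LKO the fasted pair had 6.2 and 18.5, both sucrose-fed mice 0, and the fructose-fed pair 0 and 7.5. Fasted control mice stood far above every other library, and both fasted mice labelled MED13-LKO were below them and above 7 of the 8 fed libraries. The fasted replicate 1 labelled MED13-LKO was below the fructose-fed mouse at 7.5, so that the groups overlapped. In control mice, an estimated 422 reads in the 2 fasted libraries faced 3 reads in the 4 fed ones, a ratio per normalized count of 308 with a 95% counting interval of 105 to 1501. Such intervals cover counting error only. The reads are estimates rounded to whole numbers, such as 189 from 189.28 in fasted control replicate 1. *Ppp1r3g* has 3 annotated transcripts, while the value of 1 read was set in genes with a single transcript. The mean of *Ppp1r3g* was 44.1 over the 12 libraries and 3.53 over the 10 without the fasted control mice, under the filter of 10. It entered the fit through that group alone, so its fitted values and p-values are given as a description and support nothing. Its log2 fold change in control mice was -7.13 for sucrose (SE 1.09, adjusted p = 0.0040, limma) and -7.41 for fructose (SE 1.09, adjusted p = 0.0058, limma). These fitted sizes depend on the pseudocount of 1, because the fed control libraries are at or under the 3 reads that a count of 0 allows, which are worth 2.16 to 3.61 normalized counts per library. The call with fructose was lost without fasted control replicate 2 (adjusted p = 0.0647, limma) and with a pseudocount of 0.1 (adjusted p = 0.0520, limma).

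In the livers labelled MED13-LKO the fasted level of *Ppp1r3g* was lower than in control. The 2 libraries held 26 reads against 422, so that control was 19.3 times as high (95% counting interval 13.0 to 29.9), and both mice of one genotype were above both of the other. The log2 fold change in the fasted state was -4.38 (SE 1.09, adjusted p = 0.0349, limma). That call was lost when any of the 4 fasted libraries was left out (adjusted p from 0.0876 to 0.176, limma) and with a pseudocount of 0.1 (adjusted p = 0.277, limma). Within the label MED13-LKO, no read was seen in the 2 sucrose libraries. The fasted mean of 12.3 was 5.26 times the floor of 3 reads per library there, which is worth 2.34 on average. That value has no counting interval, and the 2 fasted mice had 6 and 20 reads. Against fructose the fasted level was 3.54 times as high (95% counting interval 1.49 to 9.65), with 26 reads against 7. Neither decrease was called (log2 fold change -3.56, adjusted p = 0.0896, and -2.02, adjusted p = 0.296, limma). The difference between genotypes in the feeding response had a log2 value of 4.48 (95% interval 1.51 to 7.44, adjusted p = 0.326, limma), and it was called only with a pseudocount of 10 (3.66, adjusted p = 0.0224, limma).

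*Ppp1r3b* (chromosome 8, 35375739 to 35388139, plus strand) encodes the targeting subunit known as G-L, which is abundant in liver and carries phosphatase 1 to glycogen synthase and phosphorylase. Fasted control mice had 962.7 and 899.3, sucrose-fed control mice 2616.2 and 2423.7, and fructose-fed control mice 1400.6 and 1446.1. The control groups did not overlap, and fructose lay between the other diets. Among mice labelled MED13-LKO, the fasted pair had 1692.3 and 815.7, the sucrose-fed pair 1736.6 and 2313.4, and the fructose-fed pair 2121.8 and 1913.4. Both sugars gave levels above both fasted mice there, but the 2 fasted mice were far apart. Averaged over genotypes the gene rose with sugar by 0.90 on the log2 scale (SE 0.16, 1.86-fold, adjusted p = 0.0040, limma), and the call remained in each of 12 fits with 1 mouse left out (0.64 to 1.16).

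By diet, *Ppp1r3b* in control mice rose 2.70-fold with sucrose (log2 fold change 1.44, SE 0.27, adjusted p = 0.0105, limma). That call was lost without fasted replicate 2 (adjusted p = 0.0772, limma) or without sucrose replicate 1 (adjusted p = 0.0751, limma). With fructose the log2 fold change was 0.61 (95% interval 0.02 to 1.20, adjusted p = 0.204, limma). Fructose against sucrose in control mice was -0.82 (95% interval -1.41 to -0.23, adjusted p = 0.452, limma), and the same contrast where the label was MED13-LKO was 0.01 (95% interval -0.58 to 0.60, adjusted p = 0.998, limma). In the livers labelled MED13-LKO, sucrose gave a log2 fold change from fasted of 0.77 (adjusted p = 0.128, limma), and fructose one of 0.78 (adjusted p = 0.113, limma). Without fasted replicate 1 of that label, at 1692.3, both were 1.30 and were called (adjusted p = 0.0077 and 0.0114, limma). The feeding responses of the genotypes differed by -0.67 for sucrose (95% interval -1.50 to 0.17, adjusted p = 0.677, limma) and by 0.16 for fructose (95% interval -0.67 to 1.001, adjusted p = 0.929, limma). Genotypes did not differ by a called amount, with a log2 value of 0.17 averaged over diets (95% interval -0.17 to 0.51, adjusted p = 0.463, limma). Without fasted replicate 2 of the label MED13-LKO this was 0.34 and called (adjusted p = 0.0180, limma), and the fasted difference then went from 0.34 to 0.86 and was called (adjusted p = 0.0265, limma). With equal totals the averaged difference was 0.49 (adjusted p = 0.0189, limma) and that with fructose 0.82 (adjusted p = 0.0426, limma), both called, against 0.50 with fructose as deposited (adjusted p = 0.294, limma). That rescaling called 7527 of 12394 genes averaged over diets and 3465 with fructose, with a median log2 fold change of 0.32 in each.

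*Ppp1r3c* (chromosome 19, 36731731 to 36736653, minus strand) encodes the targeting subunit known as PTG, which promotes glycogen storage. Control mice had 698.5 and 1086.0 after fasting, 821.3 and 606.5 after sucrose, and 304.7 and 419.6 after fructose. Mice labelled MED13-LKO had 2609.6 and 1084.2, 740.1 and 774.2, and 1025.1 and 1393.3 on these diets. Control mice on fructose were the lowest of the 6 groups, and the highest value belonged to 1 fasted mouse labelled MED13-LKO. With fructose both mice labelled MED13-LKO stood above both control mice, and with sucrose the genotypes overlapped. The gene was higher where the label was MED13-LKO by 0.93 on the log2 scale averaged over diets (SE 0.21, 1.90-fold, adjusted p = 0.0105, limma), a call kept with each of the 12 mice left out in turn (0.72 to 1.14).

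Within diets, the difference of *Ppp1r3c* between genotypes was called with fructose, where it was 3.34-fold (log2 fold change 1.74, SE 0.37, adjusted p = 0.0202, limma). It was lost without control fructose replicate 1 (adjusted p = 0.0971, limma) and without replicate 1 or 2 of the fructose-fed mice labelled MED13-LKO (adjusted p = 0.0521 and 0.135, limma). In the fasted state the difference was 0.95 and not called (adjusted p = 0.140, limma), but it was 1.58 and called without fasted replicate 2 of the label MED13-LKO (adjusted p = 0.0309, limma) and 1.29 and called with equal totals (adjusted p = 0.0253, limma). Equal totals called 4149 of 12394 genes between fasted genotypes, with a median log2 fold change of 0.35. With sucrose the difference of *Ppp1r3c* was 0.10 (adjusted p = 0.922, limma). Whether the difference depended on diet was tested by interaction, which gave 0.79 for fructose (95% interval -0.37 to 1.95, adjusted p = 0.671, limma) and -0.85 for sucrose (95% interval -2.01 to 0.31, adjusted p = 0.708, limma). Averaged over genotypes, *Ppp1r3c* fell with sugar by 0.81 on the log2 scale (SE 0.23, adjusted p = 0.0293, limma). That call was lost in 6 of the 12 fits with 1 mouse left out, and the change was -0.49 (adjusted p = 0.0968, limma) without the fasted mouse at 2609.6. The other 5 mice were control fasted and sucrose replicate 2 and, of the label MED13-LKO, both sucrose mice and fructose replicate 1 (adjusted p from 0.0532 to 0.129, limma).

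*Pygl* (chromosome 12, 70190811 to 70231488, minus strand), the liver phosphorylase gene, was higher in fed than in fasted mice of both genotypes and lower where the label was MED13-LKO on each diet. Fasted control mice had 8232.3 and 7805.0, against 14448.4 and 13834.7 for sucrose-fed and 12064.8 and 13035.4 for fructose-fed control mice. Fasted mice labelled MED13-LKO had 6485.8 and 5067.2, against 9383.7 and 10223.3 for sucrose-fed and 7138.0 and 8379.0 for fructose-fed mice of that label. From the lowest group mean, the order was labelled MED13-LKO fasted, labelled MED13-LKO fructose, control fasted, labelled MED13-LKO sucrose, control fructose and control sucrose, and of these neighbours only the second and the third groups overlapped. Averaged over genotypes, *Pygl* rose with sugar by 0.67 on the log2 scale (SE 0.07, 1.59-fold, adjusted p = 0.0003, limma). In control mice it was higher than in the fasted state by 0.82 after sucrose (adjusted p = 0.0037, limma) and by 0.65 after fructose (adjusted p = 0.0165, limma). It was higher by 0.77 after sucrose where the label was MED13-LKO (adjusted p = 0.0068, limma). With fructose in the latter it was 0.43 and was not called (95% interval 0.16 to 0.70, adjusted p = 0.0617, limma). The fructose call in control mice was lost without fasted replicate 1 or 2 (adjusted p = 0.0633 and 0.120, limma), and the sucrose call in the label MED13-LKO was lost without sucrose replicate 2 (adjusted p = 0.0686, limma). Without fasted replicate 1 of that label, its fructose rise was 0.61 and was called (adjusted p = 0.0393, limma), as it was with equal totals (0.54, adjusted p = 0.0349, limma) and equal 75th percentiles (0.47, adjusted p = 0.0432, limma).

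The genotype difference of *Pygl* averaged over diets was -0.57 on the log2 scale (SE 0.07, adjusted p = 0.0004, limma), with control 1.48 times as high, and all 12 fits with 1 mouse left out kept the call (-0.63 to -0.51). By diet it was -0.48 in the fasted state (adjusted p = 0.0357, limma), -0.53 after sucrose (adjusted p = 0.0317, limma) and -0.70 after fructose (adjusted p = 0.0081, limma). Of the 5 hepatocyte markers above, 4 were lower over the same contrast. When libraries were rescaled to equal totals, the averaged difference was -0.25 (adjusted p = 0.0136, limma) and no single diet was called (-0.14, -0.24 and -0.38, adjusted p = 0.411, 0.190 and 0.0512, limma). The fasted call was also lost without either control fasted mouse (adjusted p = 0.164 and 0.118, limma) and without fasted replicate 2 of the label MED13-LKO (adjusted p = 0.211, limma), the sucrose call without any of its 4 mice (adjusted p from 0.0938 to 0.207, limma), and the fructose call without replicate 1 of the label MED13-LKO (adjusted p = 0.0593, limma). The rise of *Pygl* with sugar did not differ between genotypes by a called amount (interaction -0.13, 95% interval -0.46 to 0.20, adjusted p = 0.818, limma).

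The kinase subunits that act on phosphorylase moved less than the genes above. *Phkg2* (chromosome 7, 127573340 to 127583307, plus strand), the catalytic subunit, was 516.0 and 484.7 in fasted control mice and 391.6 to 460.6 in the 4 fed ones, without overlap. With the label MED13-LKO the fasted pair had 430.8 and 430.3 and the 4 fed mice 339.0 to 426.6, again without overlap. It fell with sugar by 0.21 on the log2 scale (SE 0.06, adjusted p = 0.0465, limma), and this call was lost in 11 of 12 fits with 1 mouse left out, all but that without control fructose replicate 1 (adjusted p up to 0.149, limma). The call was also lost without the filter (adjusted p = 0.0593, limma), with equal 75th percentiles (-0.17, adjusted p = 0.0845, limma) and with equal totals (-0.099, adjusted p = 0.317, limma). Of its 31-base subsequences 23.2% occur in another gene, and *Ccdc189* overlaps it on the other strand, so its value is uncertain. *Phka2* (chromosome X, 160502166 to 160598878, plus strand), a regulatory subunit whose loss in people causes a liver glycogen storage disease, was 450.8 and 437.0 in fasted control mice, above the 252.1 to 391.5 of the 4 fed ones. In mice labelled MED13-LKO the fasted values of 397.9 and 335.8 overlapped the fed range of 253.5 to 379.1. Its log2 fold change with sugar was -0.40 (95% interval -0.69 to -0.10, adjusted p = 0.0559, limma). It was called without control sucrose replicate 1, control fructose replicate 2 or fructose replicate 1 of the label MED13-LKO (adjusted p from 0.0304 to 0.0391, limma). *Phkb* (chromosome 8, 85840959 to 86061376, plus strand), the other regulatory subunit, was 401.7 to 650.8 over the 12 libraries, with all 6 groups overlapping their neighbours in level. Its log2 value was -0.03 for sugar (95% interval -0.27 to 0.21, adjusted p = 0.871, limma) and -0.04 between genotypes (95% interval -0.26 to 0.19, adjusted p = 0.814, limma).

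The synthase and branching enzyme genes showed no called difference in any comparison of the fit. The study also measured both, and *Phkb*, by qRT-PCR, and its primers place those assays on the genes. Those for synthase matched *Gys2* transcripts alone, in 1 of 2 annotated transcripts, those for branching enzyme matched 5 *Gbe1* transcripts, and those for *Phkb* matched 1 of 9 transcripts, whereas the table holds 1 value per gene.
Gs forward, chr6:142463362-142463380: accaaggccaaaacgacag
Gs reverse, chr6:142463279-142463300: gggctcacattgttctacttga
Phkb forward, chr8:85940905-85940926: gctcactgttacccagagaatc
Phkb reverse, chr8:85942233-85942253: gcttcatcatccaaggcaaac
Gbe forward, across an exon junction within chr16:70401836-70433552: ggtccaagctgaaggtagttat
Gbe reverse, chr16:70433630-70433651: gcccagtgtatccaatcatagt
These are the study's designed oligonucleotides in lower case, with positions found by matching them to GENCODE M21 transcripts on GRCm38. The products span 102 bases for synthase, 94 for *Phkb* and 121 for branching enzyme in the transcript.

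*Gys2* (chromosome 6, 142422613 to 142473109, minus strand) had values of 6065.0 and 6539.0 in fasted control mice, of 6093.3 and 6085.3 after sucrose, and of 6729.4 and 5421.0 after fructose. The livers labelled MED13-LKO had 5694.7 and 5594.3 in the fasted pair, 4390.6 and 5567.6 in the sucrose-fed pair, and 4755.2 and 5544.8 in the fructose-fed pair. The 3 control groups had the highest means and overlapped each other, and only the single control value of 5421.0 was below any of the others. Its log2 fold change with sugar was -0.11 (95% interval -0.29 to 0.07, adjusted p = 0.369, limma). Between genotypes it was -0.23 (95% interval -0.40 to -0.06, adjusted p = 0.0501, limma), which was called without control fructose replicate 2 (adjusted p = 0.0174, limma), or without sucrose or fructose replicate 2 of the label MED13-LKO (adjusted p = 0.0222 and 0.0461, limma). Of the 5 hepatocyte markers, 4 were also lower over this contrast, and with equal totals its sign turned (0.09, adjusted p = 0.280, limma). *Gbe1* (chromosome 16, 70313949 to 70569716, plus strand) was 2259.1 to 3088.8 in control mice and 2639.6 to 3172.7 where the label was MED13-LKO, and all 6 groups overlapped their neighbours in level. Its log2 value was -0.03 for sugar (95% interval -0.19 to 0.12, adjusted p = 0.782, limma) and 0.06 between genotypes (95% interval -0.09 to 0.20, adjusted p = 0.563, limma). With equal totals the latter was 0.37 and was called (adjusted p = 0.0020, limma). That rescaling called 7527 of 12394 genes in this contrast, and the median log2 fold change of all genes was 0.32.

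The ratio of *Gys2* to *Pygl* within a library does not depend on a scaling shared by all genes of that library. The values also carry a factor per gene and library, which the ratio does not remove. The ratio compares libraries and not the molar levels of the 2 enzymes, because the values are not per length. Its log2 value was -0.44 and -0.26 in fasted control mice, -1.25 and -1.18 in sucrose-fed and -0.84 and -1.27 in fructose-fed control mice. Fasted mice labelled MED13-LKO had -0.19 and 0.14, sucrose-fed ones -1.10 and -0.88, and fructose-fed ones -0.59 and -0.60. In each genotype both fasted mice had a higher ratio than all 4 fed mice, as the plot of this ratio shows. With sucrose both mice labelled MED13-LKO were above both control mice, and the same was so in the fasted state and with fructose. Since the ratio joins 2 members with known results, its values are given without a test.

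**Figure D3:**
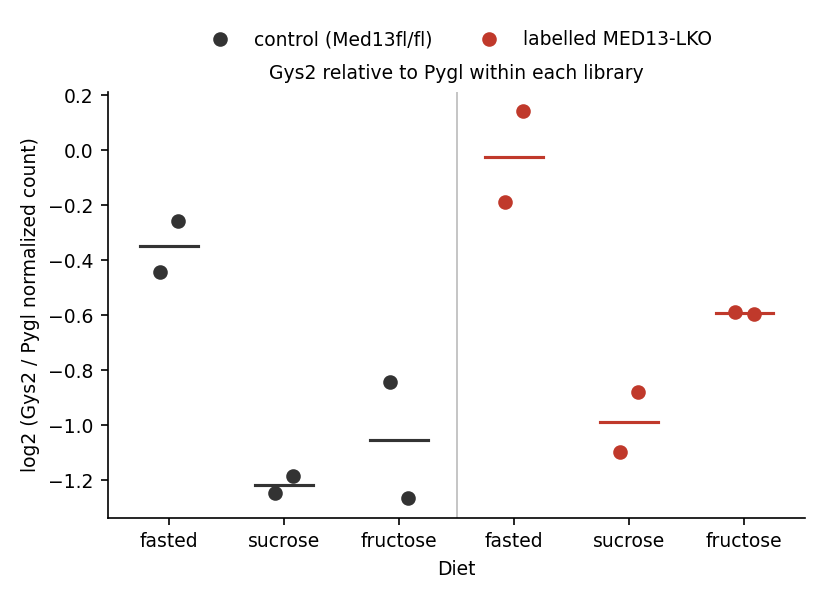
Log2 ratio of *Gys2* to *Pygl* normalized counts within each library (vertical axis) by diet, for control (Med13fl/fl) mice in black and mice labelled MED13-LKO in red; points are mice and bars are means of 2. The group means were -0.35, -1.22 and -1.05 in control mice and -0.02, -0.99 and -0.59 where the label was MED13-LKO, for fasted, sucrose and fructose in that order.

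Counted by single comparison, the calls among the 9 genes were few, and the background differed with the contrast. In control mice, 3 of 9 were called with sucrose (*Ppp1r3b*, *Ppp1r3g*, *Pygl*), against 8.57% of all genes, and 2 of 9 with fructose (*Ppp1r3g*, *Pygl*), against 5.60%. Where the label was MED13-LKO, *Pygl* alone was called with sucrose, against 5.71%, and 0 of 9 with fructose, against 6.53%, where 2 of 9 had an unadjusted p under 0.05 in limma, against 23.2% of all genes. These contrasts share the fasted mice of their genotype. Between genotypes, 2 of 9 were called in the fasted state (*Ppp1r3g*, *Pygl*), against 8.98%, 1 of 9 with sucrose (*Pygl*), against 6.03%, and 2 of 9 with fructose (*Ppp1r3c*, *Pygl*), against 7.69%. Between fructose and sucrose 0 of 9 were called by limma in either genotype, against 0.0404% of all genes in each genotype, and 2 and 1 of 9 had an unadjusted p under 0.05, against 8.58% and 7.69%. For the interactions of genotype with feeding, with sucrose and with fructose, limma called 0 of 9, against 0.0404%, 0.146% and 0.0243% of all genes, and the unadjusted p was under 0.05 for *Ppp1r3g* alone in each, against 9.49%, 8.53% and 9.46%. Without *Ppp1r3g* the counts were 2 of 8 with sucrose and 1 of 8 with fructose in control mice, and 1 of 8 between genotypes in the fasted state. A p that misses the threshold does not show that the genotypes responded alike, and the interaction intervals of *Ppp1r3c* and *Ppp1r3b* above leave room for differences of over 1 on the log2 scale.

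Other genes of the pathway were counted in 4 lists, which were chosen with earlier results of these data known. Among 9 tested core enzymes, 2 fell and 0 rose with sugar, against 11% and 10.7% of all genes, with a median log2 fold change of -0.14. *Gyg*, which primes new glycogen particles, fell by 0.49 (adjusted p = 0.0176, limma), and in control mice it was 110.9 and 139.9 when fasted and 66.3 to 74.3 when fed. In mice labelled MED13-LKO its fasted values of 86.8 and 103.1 overlapped the fed values of 72.3 to 92.5. *Gaa*, the lysosomal glucosidase, fell by 0.27 (adjusted p = 0.0499, limma), and that call was lost in 10 of 12 fits with 1 mouse left out (adjusted p up to 0.194, limma) and with equal totals (-0.16, adjusted p = 0.264, limma). Without control fasted replicate 2 or fasted replicate 2 of the label MED13-LKO, *Gyg* was not called either (adjusted p = 0.0855 and 0.0798, limma).

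Between genotypes 5 of the 9 core enzymes were called, 3 lower and 2 higher where the label was MED13-LKO, against 13.2% and 12.1% of all genes, with a median of 0.08. *Ugp2*, which makes the UDP-glucose that synthase uses, was 11466.5 to 16042.3 in control mice and 6709.4 to 9441.1 in the others, a log2 fold change of -0.84 (SE 0.06, adjusted p = 8.5e-06, limma) and without overlap. With equal totals it was -0.52 (adjusted p = 0.0001, limma). *Pgm1*, which interconverts glucose 1-phosphate and glucose 6-phosphate, was 2169.7 to 2580.2 in control mice and 170.3 to 2083.3 in the others (log2 fold change -1.32, SE 0.35, adjusted p = 0.0202, limma). The value of 170.3 was that of fructose replicate 1, and the other 5 were 999.5 or higher. The call was lost without fasted or sucrose replicate 2 of the label MED13-LKO (adjusted p = 0.0507 and 0.0587, limma), and 15.1% of the 31-base subsequences of *Pgm1* occur in another gene. *Stbd1*, which tethers glycogen to membranes, was lower (log2 fold change -0.33, adjusted p = 0.0275, limma), and the call was lost in 7 of 12 fits with 1 mouse left out (adjusted p up to 0.0790, limma), while with equal totals the value was -0.01 (adjusted p = 0.900, limma). *Gaa* was higher by 0.42 (adjusted p = 0.0046, limma), or by 0.74 with equal totals (adjusted p = 0.0002, limma), and *Nhlrc1*, which encodes the ubiquitin ligase malin, by 1.41 from 6.8 to 33.0 in control mice to 28.9 to 72.5 (adjusted p = 0.0063, limma).

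Of the isozymes of other tissues, 6 of 9 passed the filter, and 1 of these 6 was called with sugar, against 21.8% of all genes. This was *Gys1*, the muscle form of synthase, higher by 0.72 (adjusted p = 0.0156, limma). It was 29.5 and 30.1 in fasted control mice and 45.4 to 69.3 in fed ones. In mice labelled MED13-LKO its fasted values of 37.1 and 38.2 overlapped the fed range of 35.4 to 81.2. The call was lost without control fasted replicate 2 or fasted replicate 2 of the label MED13-LKO (adjusted p = 0.0512 and 0.0552, limma). No isozyme was called between genotypes, against 25.3% of all genes. Among 11 phosphatase and kinase partners, 4 were called with sugar, against 21.8% of all genes, with a median of -0.08. *Gsk3b*, a kinase that inactivates synthase, fell by 0.39 (adjusted p = 0.0041, limma), *Ppp1cc*, a phosphatase 1 catalytic subunit, by 0.25 (adjusted p = 0.0140, limma), and *Prkacb*, a catalytic subunit of protein kinase A, by 0.17 (adjusted p = 0.0338, limma). *Prkaca*, another catalytic subunit of that kinase, rose by 0.38 (adjusted p = 0.0028, limma). With 1 mouse left out, the calls of *Gsk3b* and *Prkaca* held in all 12 fits, while that of *Prkacb* was lost in 8 (adjusted p up to 0.111, limma). The call of *Ppp1cc* was lost without control fasted replicate 2 and without fasted replicate 1 of the label MED13-LKO (adjusted p = 0.0628 and 0.0627, limma). With equal totals neither *Ppp1cc* (-0.14, adjusted p = 0.162, limma) nor *Prkacb* (-0.068, adjusted p = 0.471, limma) was called. Between genotypes 2 of the 11 were called, against 25.3% of all genes, *Ppp1ca* lower and *Calm2* higher (log2 fold changes -0.21 and 0.18, adjusted p = 0.0103 and 0.0229, limma). With equal totals the sign of *Ppp1ca* turned (0.11, adjusted p = 0.105, limma), and *Calm2* was 0.49 (adjusted p = 3.5e-05, limma), while the call of *Calm2* was lost in 6 of 12 fits with 1 mouse left out (adjusted p up to 0.0679, limma). Sequence held in common with other genes made up 41.7% of the 31-base stretches of *Ppp1cc*, 18.1% of those of *Calm2* and 13.4% of those of *Ppp1ca*, so their values are uncertain.

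Of 5 genes that supply or release glucose 6-phosphate, 3 were called between genotypes, against 25.3% of all genes, and 1 was called with sugar, against 21.8%. *Slc2a2*, the liver glucose transporter gene, was 9222.0 to 13950.4 in control mice and 2868.0 to 7143.1 where the label was MED13-LKO (log2 fold change -1.19, SE 0.13, adjusted p = 0.0002, limma). *Slc37a4*, the glucose 6-phosphate transporter gene, was also lower (log2 fold change -0.54, adjusted p = 0.0009, limma), and with equal totals it was -0.23 (adjusted p = 0.0255, limma). The 4 hepatocyte markers that were lower moved with these genes over the same contrast, and their part was not tested. *G6pc*, the catalytic subunit of glucose-6-phosphatase that frees glucose from the cell, was higher by 0.51 (adjusted p = 0.0477, limma) and fell with sugar by 0.59 (adjusted p = 0.0360, limma). Fasted control mice had 7864.9 and 10423.8, sucrose-fed control mice 3077.1 and 3177.5, and fructose-fed control mice 3664.6 and 7029.6. The fasted pair labelled MED13-LKO had 5886.6 and 9423.2, its sucrose-fed pair 5894.7 and 6497.7, and its fructose-fed pair 8529.2 and 9317.0. In that label the fed values thus lay within the fasted range. The study's qRT-PCR, with more mice per group than here, instead found *G6pc* suppressed in MED13-LKO livers when fasted and with fructose. It also reported enzyme activity that followed this RNA, and lower *G6pc* RNA in MED13-deficient primary hepatocytes. Here the fasted pairs overlapped, and with fructose both mice of the label were above both control mice. The reason for this difference was not tested. With 1 mouse left out, the genotype call of *G6pc* was lost in 10 of 12 fits (adjusted p up to 0.119, limma) and its sugar call in 8 (adjusted p up to 0.157, limma). With equal totals the genotype difference of *G6pc* was 0.82 (adjusted p = 0.0026, limma) and its sugar call was lost (-0.49, adjusted p = 0.0751, limma). The plot of feeding against genotype shows *Pygl* to the lower right, higher with sugar and lower where the label was MED13-LKO, and *Ppp1r3c* to the upper left.

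**Figure D4:**
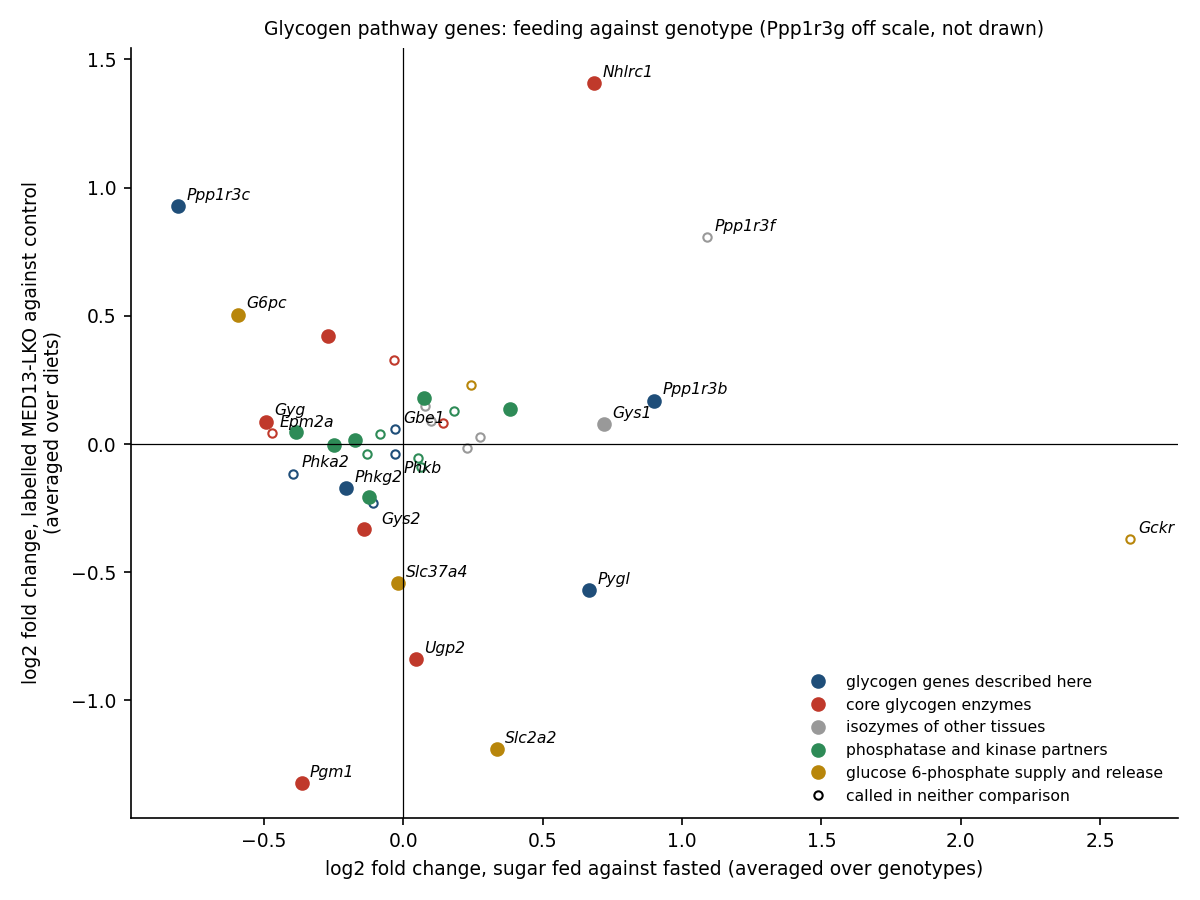
Log2 fold change for sugar fed against fasted mice (horizontal axis, averaged over genotypes) and for mice labelled MED13-LKO against control (vertical axis, averaged over diets) for the glycogen genes and 31 tested genes of the 4 pathway lists, coloured by list; filled points were called in at least 1 of the 2 comparisons in limma. *Gckr*, at 2.61 on the horizontal axis, was not called, and *Ppp1r3g*, at -5.03 and -1.39, is outside the drawn range.

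For the 3 members with the largest average change with sugar, the genes with the most similar values were sought among 8810 genes with a mean of at least 100, by Pearson correlation of log2(normalized count + 1) over the 12 libraries. The libraries share groups and depth, so the values are descriptions. For *Ppp1r3g* they were *Nedd1* (0.96), *Fbxl4* (0.95) and *Arl4d* (0.94). *Arl4d* was 1933.4 and 1927.3 in fasted control mice, 499.0 and 1072.2 in fasted mice labelled MED13-LKO and 205.1 to 374.3 in the 8 fed ones. For *Ppp1r3b* they were *Gadd45a* (0.95), *Smarcal1* (0.91) and *Tti1* (0.90). *Gadd45a* was 38.4 and 47.9 in fasted control mice and 512.7 and 361.3 with sucrose. For *Ppp1r3c* they were *Snx14* (0.89) and *Asrgl1* (0.87), and *Asrgl1* had its highest value, 757.6, in the same fasted mouse labelled MED13-LKO as *Ppp1r3c*.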

How the data were processed

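Total liver RNA of 12 mice was sequenced with paired reads. Per the labels and the methods, the authors trimmed reads with Trim Galore 0.6.5, estimated transcript counts with kallisto 0.46.0 and normalized with DESeq2 1.24.0 (build mm10), and the deposited signal values are normalized counts per gene. The transcript reference, how transcripts were summed and whether strand was used are not given in the sources used here, so antisense genes overlapping *Pygl*, *Phka2*, *Phkb*, *Phkg2*, *Ppp1r3b* and *Ppp1r3g* cannot be told apart from them. The values carry a factor per gene and library, so no whole reads could be recovered across it and no count test was run. Reads of *Ppp1r3g* are estimates from the value of 1 read, set in 2652 single-transcript genes with values under 20.

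From these values, log2(normalized count + 1) was fitted in limma 3.58.1 (R 4.3.3) for 12366 genes, those whose mean reached 10. The fit had 6 group means and a trended prior, in 14 contrasts. On simulated data, only the genotype contrast with fructose was evaluated. Genes with a Benjamini-Hochberg adjusted p under 0.05 are called. Alternatives were pseudocounts of 0.1 and 10, no filter, equal 75th percentiles, a replicate block, fits of the compared groups, each mouse left out and, chosen after seeing the data, equal totals. Symbols came from GENCODE M21 for 16212 identifiers. Python 3.11.15, NumPy 2.4.6, pandas 2.3.3, SciPy 1.17.1 and matplotlib 3.10.9 were used.

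The members and gene lists were chosen with earlier results of these data known. The named genes are the 9 members, genes of the 4 pathway lists called in either averaged comparison, *Med13*, cell type markers, and the 3 genes most correlated with each of the 3 members with the largest average change with sugar. *Gyg1* and *Epcam*, also listed, were not found in the table. *Gckr* was named after its value was seen. Some genes under these rules are not reported here, and the list counts leave them out. A leave-one-out group of 1 mouse is assumed to vary like the others.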

Additional observations from a re-analysis of the deposited data

How the results depend on the processing

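Of 183 counts of members called under another setting, 147 were within 1.5 times the reported count, and of 1192 values of single genes 1010 kept their direction and side of the threshold, 121 lost the call, 24 gained it and 37 changed sign. With 1 mouse left out, the members called ranged from 3 to 5 for sugar averaged over genotypes, 2 to 3 for sucrose and 0 to 2 for fructose in control mice, 0 to 2 for either sugar in the label MED13-LKO, 2 to 4 between genotypes averaged over diets, 0 to 2 for genotype when fasted or with fructose, and 0 to 0 with sucrose. Between the sugars and for the interactions they stayed at 0.

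A pseudocount of 0.1 left 1 member called for fructose in control mice and 1 for genotype when fasted. A pseudocount of 10 gave 4 between genotypes averaged over diets, with *Gys2* (-0.23, adjusted p = 0.0482, limma) and *Ppp1r3g* (-1.12, adjusted p = 0.0034, limma) added, and 1 each, *Ppp1r3g*, for the interactions with feeding and with sucrose (3.43, adjusted p = 0.0406, limma). At that setting 3161, 5 and 17 of 12366 genes were called in these contrasts, in that order. *Ppp1r3g* passed the filter only through the fasted control mice, so its calls are a description and support nothing. Fitting only the compared groups left 1 each for fructose in control mice and for genotype when fasted or with fructose. Equal 75th percentiles and equal totals gave 1 for fructose in the label MED13-LKO and 0 for genotype with sucrose, and equal totals gave 5 between genotypes averaged over diets, where they called 7527 of all genes. The pairing check by the replicate numbers of the sample titles gave correlations of -0.142 to 0.0782 between the deviations of equally numbered libraries. With 0 of 15 pairs over 0.1, it showed no pairing by these numbers. The column labels number the fed mice differently, so pairing of fasted with fed mice by those labels was not tested. With the replicate block, genotype when fasted kept 1 member, *Pygl* being lost (adjusted p = 0.0532, limma), and *Phkg2* was lost for sugar (adjusted p = 0.0641, limma). The causes of these changes were not tested.

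Some signs turned. With equal 75th percentiles they were those of *Gbe1* and *Phkb* for sugar (0.0014 and 0.0036), *Phkb* between genotypes (0.0067), *Ppp1r3b* between sugars in the label MED13-LKO (-0.034), *Ppp1r3c* for the interaction with feeding (0.020) and *Pygl* for that with sucrose (0.025). With equal totals they were *Gbe1* and *Phkb* for sugar (0.075 and 0.077) and, between genotypes, *Gys2* (0.086), *Phka2* (0.20), *Phkb* (0.28, adjusted p = 0.0345, limma), *Phkg2* (0.14) and *Ppp1ca* (0.11). Between genotypes the median of all genes was 0.32 in that setting. With 1 mouse left out, the ranges that crossed 0 were, for sugar, *Gbe1* -0.098 to 0.035 and *Phkb* -0.17 to 0.11, between genotypes *Phkb* -0.13 to 0.054 and *Ppp1r3b* -0.0058 to 0.34, for *Ppp1r3b* between sugars in the label MED13-LKO -0.20 to 0.21, between genotypes when fasted -0.19 to 0.86, and for its interactions with feeding -0.78 to 0.28 and with fructose -0.36 to 0.69. For *Ppp1r3c* they were -0.62 to 0.015 with sucrose in control mice, -1.13 to 0.14 with fructose in the label MED13-LKO, -0.12 to 0.32 between genotypes with sucrose, and -0.66 to 0.60 for the interaction with feeding. For *Pygl* they were the interactions with feeding, -0.31 to 0.048, and with sucrose, -0.22 to 0.13. The log2 ratio of *Gys2* to *Pygl* in fasted mice labelled MED13-LKO was -0.19 or 0.14 with 1 mouse.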
